A study of Mus musculus with 10 samples.

Results

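The 10 genes described here encode the machinery of V(D)J recombination: the recombinase Rag1 and Rag2, the terminal transferase Dntt, the hairpin opening enzymes Dclre1c (Artemis) and Prkdc (the catalytic subunit of DNA-PK), the Ku subunits Xrcc5 and Xrcc6, and the ligation factors Xrcc4, Lig4 and Nhej1 (XLF). They were chosen by name, though with earlier results of these data known. They are 10 of the 55494 genes with a transcript in the files, and all 10 passed the filter on low counts. RNA sequencing was done on leukemia initiating cells sorted from the spleen of Eμ-Ret mouse pups at 13 days of age. Every pup in both groups carried the RFP/RET transgene, an RFP and RET kinase fusion under the immunoglobulin heavy chain enhancer Eμ, which is active in the B lineage, so no library of cells without the transgene enters these comparisons. The control group was 5 pups given 50 µl of PBS, and the treated group was 5 pups given 20 µg of Poly(A:U), a double-stranded RNA made synthetically, with cells collected 7 days later in both. The question of the comparison is what Poly(A:U) does to these cells.

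V(D)J recombination assembles antigen receptor genes in developing B and T cells. RAG1 and RAG2 bind recombination signals beside the gene segments and cut the DNA, which leaves hairpin ends on the coding side and blunt ends on the signal side. Ku binds the broken ends, Artemis with DNA-PKcs opens the hairpins, terminal transferase adds nucleotides without a template, and XRCC4, DNA ligase IV and XLF seal the junction. The recombinase and terminal transferase are restricted to lymphocyte precursors, whereas the end-joining factors serve break repair in all cells.

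Libraries held between 17859006 and 22587871 estimated reads. Of the marker lists, the summed level of 13 B cell precursor genes, a list that includes Rag1, Rag2 and Dntt, was 9312 CPM (reads scaled to the library total) in PBS 4 and 11085 to 14077 CPM in the other 9 libraries. PBS 4 stood apart: its median correlation with the others was 0.94, against 0.966 or more for each of the rest, and its 13 T cell markers summed to 496 CPM, against 76.6 CPM in Poly(A:U) 5 and 24.3 to 31.8 CPM in the others. Its 9 macrophage markers summed to 147 CPM, against 12.2 to 36.7 CPM elsewhere. The T cell receptor gene Trbc1 was at 81.9 CPM and Cd3e at 53.9 CPM in PBS 4, against at most 4.26 and 2.96 CPM elsewhere. Tcf7 and Lck were also high there, at 151 and 140 CPM, but not every marker of the list was raised. Cd3d and Cd8a were both at 0.147 CPM in PBS 4, against up to 1.17 and 0.391 CPM elsewhere. A list of 5 genes of thymocytes, which also express Rag1, Rag2 and Dntt, summed to 161 CPM in PBS 4 and to 91.5 to 120 CPM in the other 9. Trbc1 is in that list and made up 81.9 CPM of the PBS 4 sum, while 2 other members, Ptcra and Cd8b1, were at or below 0.147 and 0.392 CPM in all 10 libraries. The 7 stem and early progenitor markers summed to 24.8 CPM in PBS 4 and to 4.03 to 9.27 CPM elsewhere, with Cd34 at 19.8 CPM against at most 1.4 CPM. Cd34 was the only marker of that list above all other libraries in PBS 4. Kit and Flt3 were at 1.57 and 1.28 CPM there, against up to 2.34 and 2.83 CPM elsewhere. The 10 neutrophil markers summed to 692 to 1043 CPM in PBS 1 to 3 and to at most 261 CPM in the other 7, and the 10 erythroid markers to 252 to 546 CPM in PBS 1 to 3 and to 1559 to 12538 CPM in the other 7. The deposited names of PBS 1 to 3 share a first part that no other library has, while PBS 4 and Poly(A:U) 5 share another part and PBS 5 and Poly(A:U) 1 yet another. For the 10 genes, results that turn on PBS 4 or PBS 1 to 3 are also given without them. What these name parts stand for is not stated.

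Dntt has 2 long coding models that differ in 1 exon, the short form Dntt-202 (510 residues) and the long form Dntt-201 (530 residues). They are shown because nearly all Dntt signal fell on the form without that exon. The 60 bases of exon 11 of Dntt-201, at chr19:41058567-41058626 on the plus strand of mm10, stand in capitals between 20 bases of the neighbouring exons on each side, and the junction of Dntt-202 lacks them. Both are read 5′ to 3′ and come from the GENCODE M21 transcripts.
Dntt-201: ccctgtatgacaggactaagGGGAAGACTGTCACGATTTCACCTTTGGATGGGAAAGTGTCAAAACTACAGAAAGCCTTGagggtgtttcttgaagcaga
Dntt-202: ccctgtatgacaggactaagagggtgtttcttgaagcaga
The exon adds 20 codons and keeps the reading frame.

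The 250 bases upstream of the RefSeq start of Rag1, Rag2 and Dntt are shown because these are the members restricted to lymphocyte precursors. Capitals mark the E-box letters CANNTG, which read the same on both strands and are bound by E proteins such as E2A. Rag1 lies at chr2:101638282-101649501 on the minus strand and Rag2 at chr2:101624718-101632529 on the plus strand (mm10), so that the 3′ ends face each other across 5752 bases. Dntt lies at chr19:41029275-41059525 on the plus strand. The windows are chr2:101649533-101649782 (minus strand), chr2:101624462-101624711 (plus strand) and chr19:41029025-41029274 (plus strand) of GRCm38.p6, written 5′ to 3′.
Rag1 upstream: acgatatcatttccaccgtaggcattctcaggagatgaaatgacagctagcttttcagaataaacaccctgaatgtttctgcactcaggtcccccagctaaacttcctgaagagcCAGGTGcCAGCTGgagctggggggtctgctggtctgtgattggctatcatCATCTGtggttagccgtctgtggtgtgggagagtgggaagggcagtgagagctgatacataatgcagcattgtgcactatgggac
Rag2 upstream: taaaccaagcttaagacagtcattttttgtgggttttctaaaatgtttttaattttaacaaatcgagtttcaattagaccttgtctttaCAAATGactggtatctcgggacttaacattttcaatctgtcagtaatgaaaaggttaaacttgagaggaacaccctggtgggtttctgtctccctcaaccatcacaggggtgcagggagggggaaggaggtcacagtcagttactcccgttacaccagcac
Dntt upstream: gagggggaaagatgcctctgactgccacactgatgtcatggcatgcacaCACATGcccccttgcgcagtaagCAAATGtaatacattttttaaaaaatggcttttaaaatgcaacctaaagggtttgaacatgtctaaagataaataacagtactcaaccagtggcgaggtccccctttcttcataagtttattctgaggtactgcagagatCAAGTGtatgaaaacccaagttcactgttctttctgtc
The Rag1 window holds 3 E-box matches, that of Rag2 1 and that of Dntt 3. Of 32851 RefSeq windows of the same length, 66.2% hold at least 1 match, so the letters are common. GGGAA, the core bound by Ikaros, occurs once in each of the 3 windows counting both strands, and in 56.2% of all windows. Neither GTAAACA, a core bound by FOXO factors (3.17% of all windows), nor TATAAA (12.4%) was found in any of the 3 on either strand. RefSeq promoter entries were matched for 9 of the 10 genes, and Prkdc has none.

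None of the 10 genes passed the comparison of Poly(A:U) with PBS in edgeR's quasi-likelihood test with Benjamini-Hochberg adjustment, in which 0 of 13729 genes (0%) had an adjusted p below 0.05. An unadjusted p below 0.05 was found for 1002 genes (7.3%), of which 564 had a positive and 438 a negative fold change, and 1 of the 10 members, Rag2, was among them. DESeq2's Wald test called 13 of 13444 genes (0.0967%) and limma voom with quality weights 870 of 13729 (6.34%), and the single member called by either was Rag2, by voom. Without PBS 5, edgeR called 18 genes, none of them a member. The Y chromosome genes Eif2s3y, Kdm5d and Ddx3y had log2 fold changes of -7.34, -6.73 and -6.185, with overlapping groups and an adjusted p of 0.677 each in edgeR's test. The sex of the pups is not in the sample labels used here, and its part in the values of the members was not tested. The log2 fold changes (Poly(A:U) against PBS) were positive for 2 members and negative for 8, with a median of -0.089, beside a median of -0.0024 and 6784 positive and 6945 negative values over all genes tested. The libraries of the groups overlapped for 10 of the 10 members, where 130 of all genes tested (0.947%) had groups that did not overlap.

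**Figure D1:**
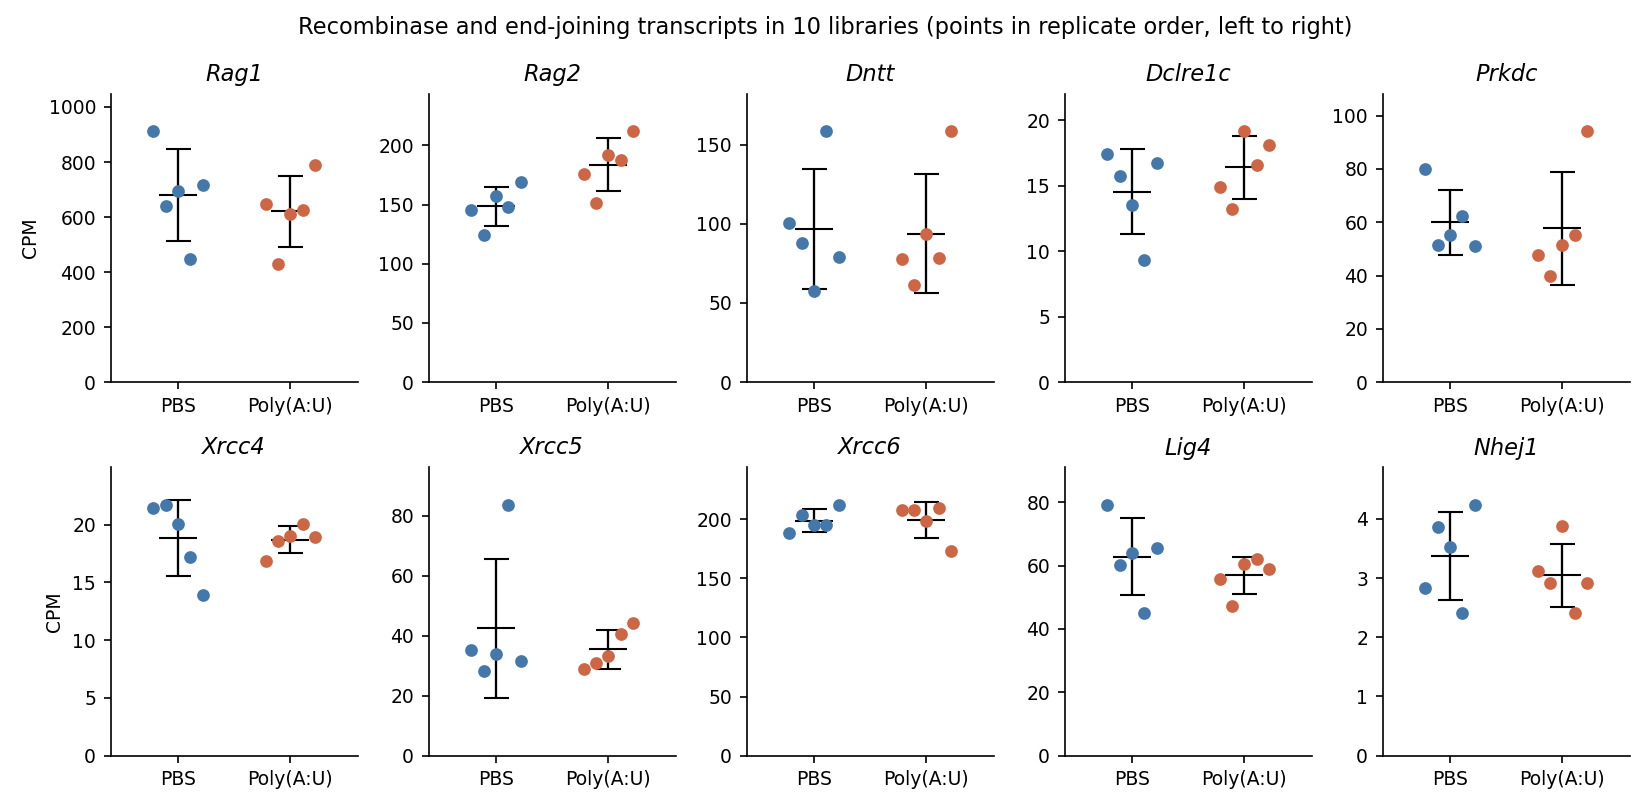
Levels of the 10 genes in CPM (y axis, starting at 0) in the PBS and Poly(A:U) libraries, with points in replicate order from left to right and bars for the mean and SD of 5 libraries. The groups overlap in every panel, Xrcc5 has 1 high point in PBS 4 at 83.6 CPM, and Prkdc has 1 in Poly(A:U) 5 at 94.2 CPM.

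Rag1, which carries the catalytic site of the recombinase, had the highest read share of the 10. It stood at 912, 639, 695, 446 and 715 CPM in PBS 1 to 5 and at 646, 429, 611, 626 and 788 CPM in Poly(A:U) 1 to 5. PBS 1 was the highest library and Poly(A:U) 2 and PBS 4 the lowest, so each group held a low library and the groups overlapped. The PBS mean was 681 ± 167 CPM and that of Poly(A:U) 620 ± 128 CPM (SD, n = 5 each). The log2 fold change was -0.17 ± 0.17 (SE, 95% interval -0.54 to 0.21), and edgeR's adjusted p was 0.80. Without PBS 1 to 3 it was 0.063, and with the shared name parts as a block 0.28, both opposite in sign to the value above. Without PBS 4 and Poly(A:U) 5, a setting added after the data were seen, it was -0.36 (unadjusted p = 0.0136, adjusted p = 0.16 by edgeR), larger than with all libraries.

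Rag2, the partner subunit that reads the histone mark of active promoters, was at 145, 124, 157, 148 and 169 CPM in PBS 1 to 5 and at 176, 151, 192, 188 and 212 CPM in Poly(A:U) 1 to 5. Only Poly(A:U) 2, at 151 CPM, lay within the PBS range, and the other 4 Poly(A:U) libraries were above every PBS library. The means were 149 ± 16.4 CPM and 184 ± 22.4 CPM (SD, n = 5 each). The fold fitted by edgeR after TMM scaling was 1.21. As a log2 fold change it was 0.28 ± 0.094 (SE, 95% interval 0.072 to 0.48), with an unadjusted p of 0.0122 by edgeR's test, which ranked it 206 among the 13729 genes, and an adjusted p of 0.68. In limma voom, which weighted PBS 4 at 0.222 and Poly(A:U) 5 at 0.335, the log2 fold change was 0.34 with an adjusted p of 0.0346, and in DESeq2 the adjusted p was 0.39. It was positive under all 22 alternative settings, between 0.18 and 0.34, with voom the only call among them. Without PBS 1 to 3 the value was 0.18 (unadjusted p = 0.159, adjusted p = 0.88 by edgeR), and with the shared name parts as a block 0.24 (unadjusted p = 0.105, adjusted p = 0.80 by edgeR), so the unadjusted threshold was missed in both. It was also missed with all 10 libraries in limma on log2(TPM + 0.1), at 0.29 (unadjusted p = 0.0692, adjusted p = 0.998). The markers that set PBS 1 to 3 apart are the neutrophil and erythroid ones given above, and their part in this difference was not tested. In the authors' deposited table, Rag2 ranged from 124 to 164 in PBS and from 153 to 204 in Poly(A:U), on the authors' own CPM scale.

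Because the genes differ in length, Rag1 and Rag2 were set against each other in TPM, which is corrected for transcript length. The ratio of Rag1 to Rag2 TPM was 2.17, 1.78, 1.55, 0.987 and 1.52 in PBS 1 to 5 and 1.29, 0.994, 1.09, 1.12 and 1.28 in Poly(A:U) 1 to 5. PBS 1, 2, 3 and 5 were above all 5 Poly(A:U) libraries. PBS 4 was just below the lowest of them, Poly(A:U) 2, but in CPM its ratio of 3.01 was above the 2.84 of Poly(A:U) 2. PBS 4 and 5 lack the name part shared by PBS 1 to 3. Of these, PBS 5 lay above the treated libraries and PBS 4 at their low end. The means were 1.601 ± 0.43 and 1.16 ± 0.13 (SD, n = 5 each), a description with no test, since the ratio was singled out after its values were seen. Over the 10 libraries the log2 levels of Rag1 and Rag2 had a Pearson r of 0.044, as a description, and Rag2 ranked 6036 of 13728 genes by likeness to Rag1. The value was 0.35 within the groups and -0.24 with PBS 4 and Poly(A:U) 5 left out. B230118H07Rik, an overlapping gene model at a mean of 6.57 CPM, shares exon bases with Rag1 on the same strand and with Rag2 on the opposite strand, and strand use in the counting is not stated.

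**Figure D2:**
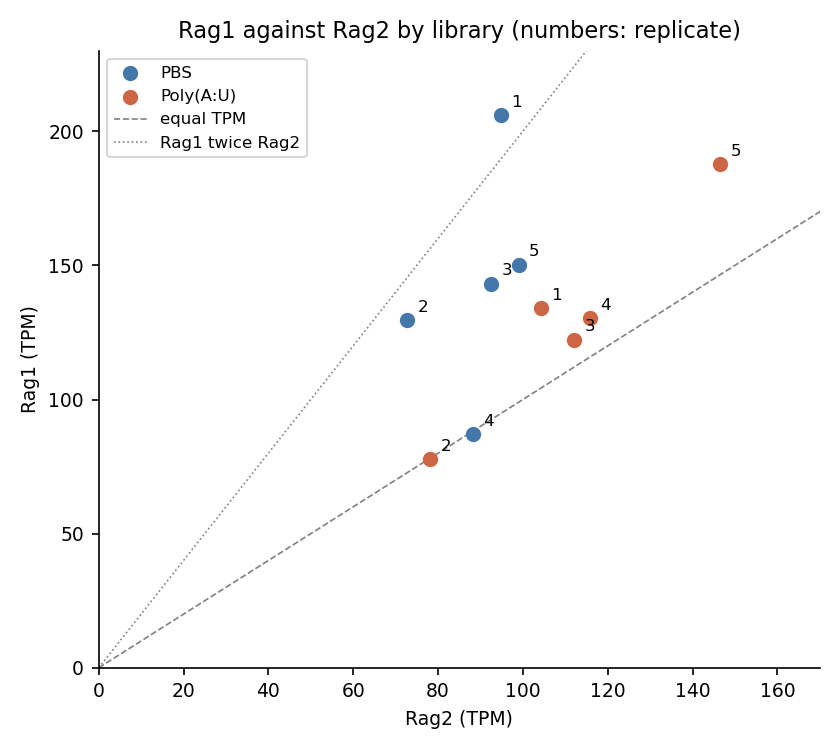
Rag1 against Rag2 in TPM, 1 point per library labelled with its replicate number, with a dashed line for equal TPM and a dotted line for Rag1 at 2 times Rag2. The 4 PBS libraries other than PBS 4 have ratios of 1.52 to 2.17, and the Poly(A:U) libraries lie near the line of equality, between 0.994 and 1.29.

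Dntt, which adds N nucleotides at the junctions and is scarce in fetal lymphocyte precursors, was at 101, 87.9, 57.8, 158 and 78.8 CPM in PBS 1 to 5 and at 77.8, 61.3, 93.3, 78.4 and 158 CPM in Poly(A:U) 1 to 5. One library of each group, PBS 4 and Poly(A:U) 5, stood at 158 CPM and every other library at or below 101 CPM. The means were 96.7 ± 37.8 CPM and 93.8 ± 37.9 CPM (SD, n = 5 each). The log2 fold change was -0.086 ± 0.30 (SE, 95% interval -0.76 to 0.59), and edgeR's adjusted p was 0.95. Leaving out PBS 4 gave 0.18, leaving out Poly(A:U) 2 gave 0.016, leaving out Poly(A:U) 5 gave -0.35 and leaving out PBS 1 to 3 gave -0.39. The high libraries PBS 4 and Poly(A:U) 5 share a name part. Without both, a setting added after the data were seen, the value was -0.074 ± 0.16 (SE). With the shared name parts as a block it was -0.063 ± 0.22 (SE). The ratio of Dntt to Rag1 TPM was 1.18 in PBS 4 and 0.279 to 0.462 in the other 4 PBS libraries. PBS 4 is also the library with the higher T cell, macrophage and progenitor marker sums given above, of which the progenitor sum was raised by Cd34 alone. In a bulk sample more cells of a type and more RNA per cell cannot be told apart. The part of other cells in its Dntt level was not tested.

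The exon 11 skipping form shown above, Dntt-202, took 93.0 ± 2.6% of Dntt TPM over the 10 libraries (SD). The long form Dntt-201 took 5.87 ± 1.74%, with a lowest share of 3.11% in Poly(A:U) 2 and a highest of 8.30% in Poly(A:U) 3, both in the treated group. Its log2 fold change was -0.25 ± 0.42 (SE), and edgeR's adjusted p over transcripts was 0.9995, a test in which 0 of 32435 transcripts (0%) were called and 1402 had an unadjusted p below 0.05. The authors' estimation shares reads between the 2 forms, so the split is an estimate. Among the other genes, the share of TPM held by the main model was 68.7 ± 3.8% for Rag2-202, 66.8 ± 4.5% for Dclre1c-203, 82.2 ± 10.03% for Lig4-201 and 52.5 ± 12.4% for Xrcc6-201 (SD, n = 10). Rag2-202 had a log2 fold change of 0.28 ± 0.12 (SE) and Rag2-201 of 0.20 ± 0.13, so both models had the sign of the gene.

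**Figure D3:**
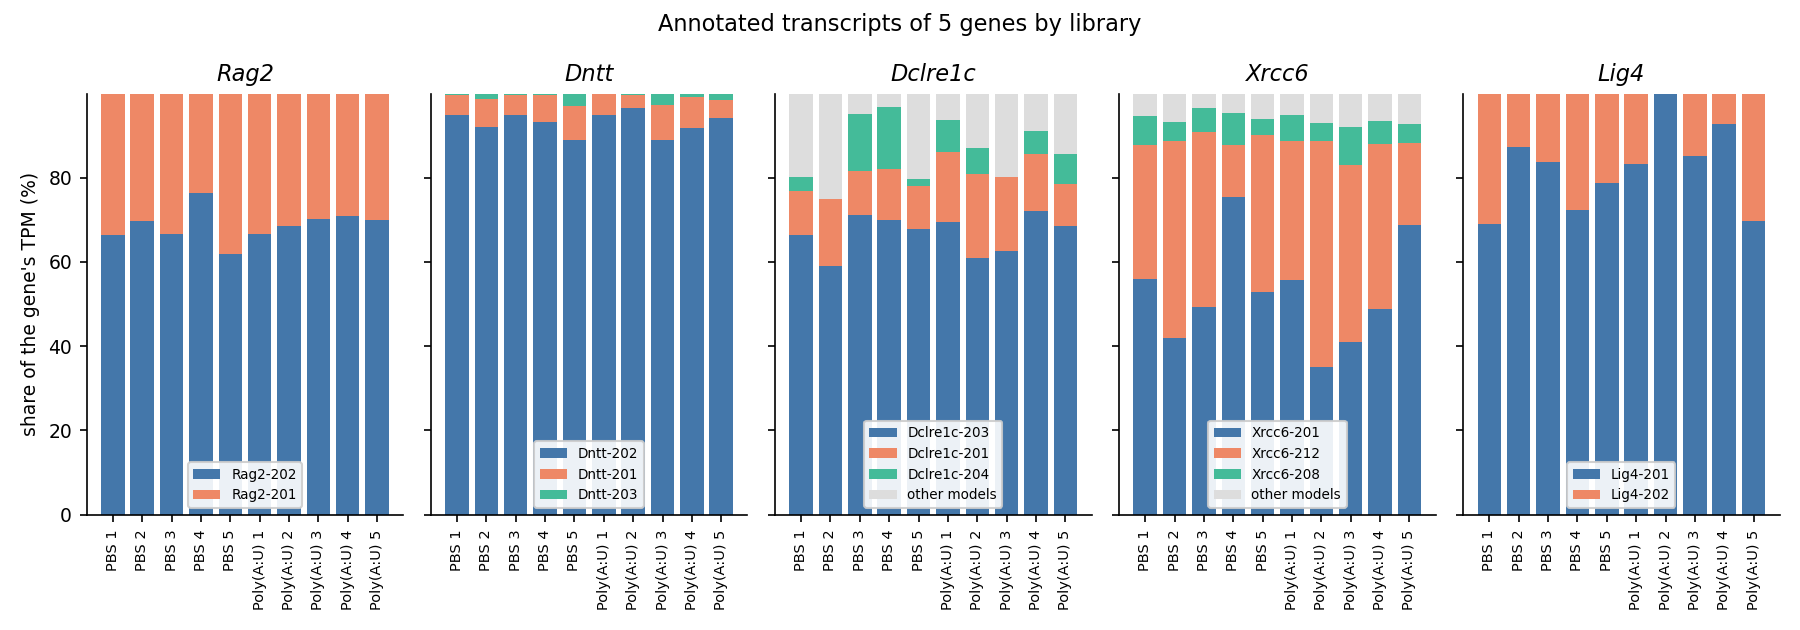
Share of each gene's TPM (y axis, percent) by annotated transcript for 5 of the genes, 1 bar per library. Dntt is nearly all Dntt-202 in each library, while Xrcc6 splits between Xrcc6-201 and Xrcc6-212, with the lowest Xrcc6-212 share, 12.3%, in PBS 4.

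Of the hairpin opening enzymes, Dclre1c (chr2:3424131-3464130, plus strand, mm10), the nuclease Artemis, was at 17.4, 15.7, 13.5, 9.34 and 16.7 CPM in PBS 1 to 5 and at 14.9, 13.2, 19.2, 16.6 and 18.1 CPM in Poly(A:U) 1 to 5. PBS 4 was the lowest library, and the means of 14.5 ± 3.25 and 16.4 ± 2.39 CPM (SD, n = 5 each) differed by less than the spread of PBS. Prkdc (chr16:15637866-15842235, plus strand), the kinase that activates Artemis at the hairpin, was at 80.0, 51.3, 55.2, 62.5 and 50.9 CPM in PBS 1 to 5 and at 47.8, 39.9, 51.6, 55.1 and 94.2 CPM in Poly(A:U) 1 to 5. Poly(A:U) 5 and PBS 1 were its highest libraries, 1 in each group. The log2 fold changes were 0.15 ± 0.16 for Dclre1c and -0.091 ± 0.20 for Prkdc (SE), with adjusted p of 0.81 and 0.92 in edgeR's test, and that of Prkdc was 0.028 without PBS 1. With PBS 4 and Poly(A:U) 5 left out, Prkdc was -0.30 and Dclre1c 0.0022, and with the shared name parts as a block they were 0.20 and 0.33. Suv39h2 overlaps exons of Dclre1c on the opposite strand at a mean of 10.9 CPM, and strand use in the counting is not stated.

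The Ku subunits differed in how they varied. Xrcc5 (chr1:72307421-72394952, plus strand), which encodes Ku80, was at 35.2, 28.0, 33.9, 83.6 and 31.5 CPM in PBS 1 to 5 and at 28.7, 30.8, 33.1, 40.4 and 44.1 CPM in Poly(A:U) 1 to 5. PBS 4 was the only library above 44.1 CPM, and the sign changed without it: the log2 fold change was -0.30 ± 0.29 (SE, 95% interval -0.95 to 0.35, adjusted p = 0.79 in edgeR's test) with all libraries and 0.12 without PBS 4. It was 0.040 without both PBS 4 and Poly(A:U) 5, the setting chosen after the values were seen. The negative value was larger without PBS 1 to 3, at -0.74 (unadjusted p = 0.0643, adjusted p = 0.82 by edgeR), and with the shared name parts as a block, at -0.59 (unadjusted p = 0.0197, adjusted p = 0.80 by edgeR). Xrcc6 (chr15:81987835-82040085, plus strand), which encodes Ku70, was at 188, 204, 195, 195 and 212 CPM in PBS 1 to 5 and at 207, 208, 198, 210 and 173 CPM in Poly(A:U) 1 to 5. Its coefficient of variation over the 10 libraries was 6.05%, the lowest of the 10 genes, beside 42.3% for Xrcc5. The log2 fold change was -0.021 ± 0.083 (SE, 95% interval -0.20 to 0.16, adjusted p = 0.96 in edgeR's test), and its sign was positive without Poly(A:U) 5 (0.029). The ratio of Xrcc6 to Xrcc5 in TPM was 3.25 in PBS 4 and 5.70 in Poly(A:U) 5, below the 8.45 to 13.2 of the other 8 libraries. Desi1, on the opposite strand at a mean of 153 CPM, overlaps exons of Xrcc6, and without a stated use of strand the reads of the overlap cannot be told apart.

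**Figure D4:**
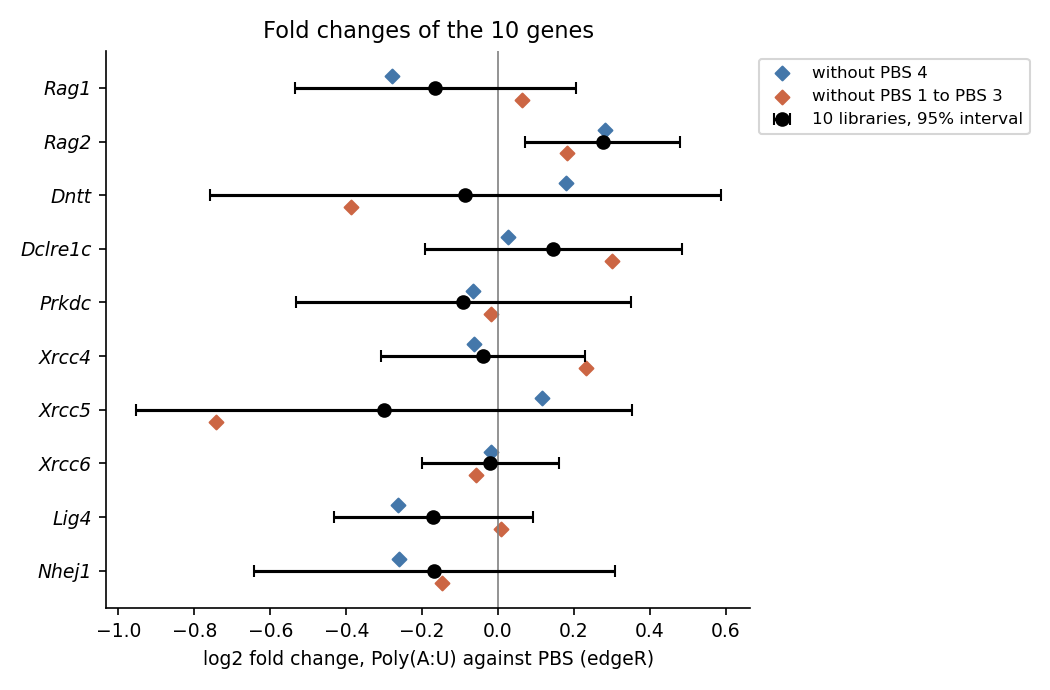
Log2 fold change of each gene, Poly(A:U) against PBS, from edgeR, with black points and 95% intervals for the 10 libraries and coloured diamonds for fits that leave libraries out. The interval of Rag2, 0.072 to 0.48, lies above 0, and those of the other 9 genes cross 0.

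Among the ligation factors, Xrcc4 (chr13:89774027-90089608, minus strand), the scaffold of the ligase, was at 21.4, 21.7, 20.0, 17.2 and 13.9 CPM in PBS 1 to 5 and at 16.9, 18.6, 19.01, 20.0 and 18.9 CPM in Poly(A:U) 1 to 5. PBS held both the highest and the lowest libraries. Lig4 (chr8:9969049-9977686, minus strand), the ligase that seals the junction, was at 79.2, 60.2, 64.1, 45.1 and 65.7 CPM in PBS 1 to 5 and at 55.8, 47.1, 60.6, 62.1 and 59.0 CPM in Poly(A:U) 1 to 5. Nhej1 (chr1:74967139-75125200, minus strand), which bridges the ends for the ligase, was the lowest of the 10 at 2.83, 3.86, 3.52, 2.41 and 4.24 CPM in PBS 1 to 5 and 3.12, 2.92, 3.88, 2.41 and 2.92 CPM in Poly(A:U) 1 to 5, from 43 to 90 estimated reads per library. The log2 fold changes were -0.040 ± 0.12 for Xrcc4, -0.17 ± 0.12 for Lig4 and -0.17 ± 0.22 for Nhej1 (SE), with adjusted p of 0.94, 0.72 and 0.84 in edgeR's test. The value of Xrcc4 was 0.0047 without PBS 1 and 0.017 without PBS 2. With PBS 1 to 3 left out it was 0.23 for Xrcc4 and 0.0088 for Lig4. With PBS 4 and Poly(A:U) 5 left out, Lig4 was -0.26 (unadjusted p = 0.0163, adjusted p = 0.17 by edgeR). Tmem167 overlaps exons of Xrcc4 on the opposite strand at a mean of 72.0 CPM.

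On the TPM scale, which compares genes per length, the order was Xrcc6 (172 ± 17.8 TPM, SD, n = 10), Rag1 (137 ± 39.3), Rag2 (100 ± 21.1), Dntt (66.6 ± 27.4), Xrcc5 (20.3 ± 8.2), Lig4 (18.9 ± 4.5), Xrcc4 (18.8 ± 3.0), Dclre1c (7.35 ± 2.08), Prkdc (6.19 ± 2.22) and Nhej1 by its 5-exon model (4.40 ± 0.88). The step from Dntt to Xrcc5 and the step from Xrcc4 to Dclre1c held in 10 of 10 libraries. Rag1 and Rag2 kept their order in 8 libraries, whereas Xrcc5, Lig4 and Xrcc4 could not be ordered beyond their spread, with each above the next in 4 of 10. The recombinase genes and Dntt were thus at levels of the same order as Ku70 and above the other end-joining genes in every library. Nhej1 read 37.8 TPM in PBS 5 when all its models were summed, of which the 5-exon model held 5.68 TPM and a 65-base model the rest. Its only coding model in this annotation lacks a complete 5′ end.

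In pattern across the 10 libraries, the genes most like Rag1 were B3gnt2, Mon2 and Ddx6 (Pearson r of 0.98 each on log2 CPM), and those most like Rag2 were Phtf1, Zfp459 and Alg10b (0.98, 0.93 and 0.93). Those most like Dntt were Iqgap3, Dlgap5 and Bub1b (0.97, 0.96 and 0.94), which act in cell division, and these were, with PBS 4 and Poly(A:U) 5 left out, 0.88, 0.81 and 0.74. Among members, Lig4 was closest to Rag1 (r = 0.89, rank 154 of 13728, and 0.73 when PBS 4 and Poly(A:U) 2 are left out). With PBS 4 and Poly(A:U) 5 left out instead, the r of Lig4 with Rag1 was 0.96 and that of Prkdc with Rag1 0.89. Prkdc was closest to Dntt (r = 0.72, rank 763), which became 0.53 with PBS 4 and Poly(A:U) 5 left out, and Xrcc5 came next (r = 0.72, rank 805), which became -0.12. With those libraries left out, Dclre1c was the member closest to Dntt, at 0.86, where all 10 libraries gave -0.22. Which member was closest to Dntt thus turned on PBS 4 and Poly(A:U) 5. These values describe 10 libraries that share treatment groups and name parts, and carry no test.

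**Figure D5:**
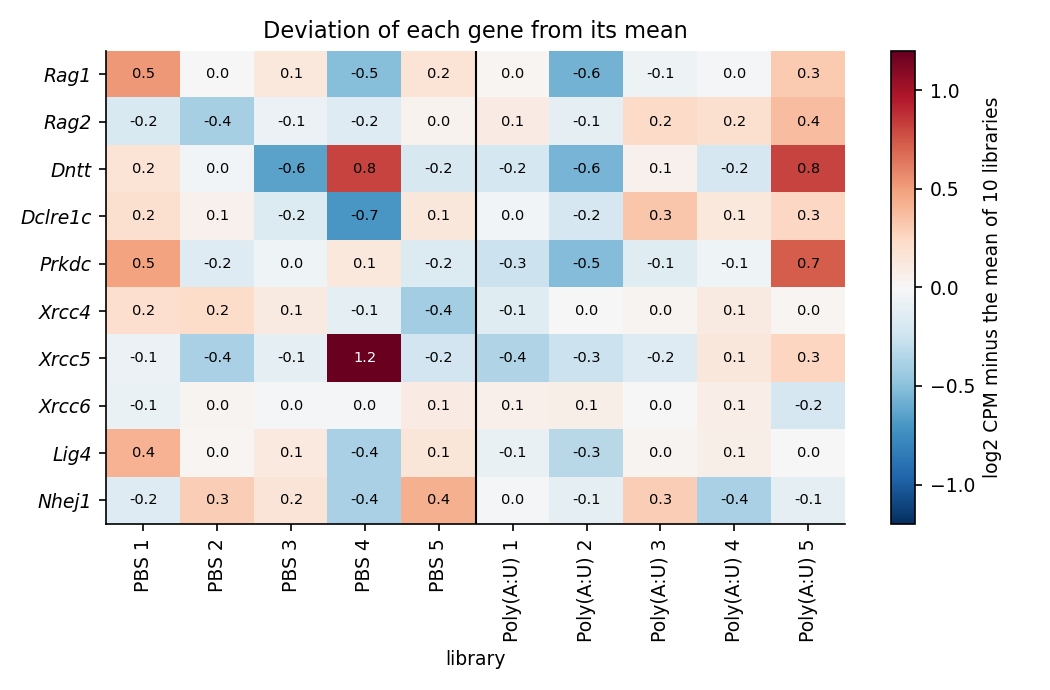
Log2 CPM of each gene in each library minus its mean over the 10 libraries, as colours on a scale centred on 0. PBS 4 shows high Dntt and Xrcc5 with low Rag1, Dclre1c and Lig4, and Poly(A:U) 5 shows high Dntt and Prkdc.

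The other genes of these pathways, taken from 7 lists, included 65 tested genes, of which edgeR's test called 0 and 4 had an unadjusted p below 0.05. DESeq2 called none of them and limma voom 8, where voom called 6.34% of all genes tested, and their median log2 fold change was 0.011, with 34 positive and 31 negative. Of 8 genes for RAG cofactors and turnover, 6 were positive and 2 negative (median 0.068), with the smallest unadjusted p for Dcaf1, part of the ligase that turns over RAG1 (-0.15 ± 0.12, SE), and the kinase gene Cdk2 (0.074 ± 0.068). Of 10 transcription factors known to act on the Rag genes, 1 was positive and 9 negative (median -0.22). The lowest p there was that of Runx1, with a PBS mean of 180 ± 17.5 CPM and a Poly(A:U) mean of 156 ± 13.5 CPM (SD, n = 5 each) and a log2 difference of -0.23 ± 0.084 (SE, unadjusted p = 0.0171, adjusted p = 0.68), followed by Foxp1 at -0.26 ± 0.15. Voom gave adjusted p below 0.05 to 6 of these 10, Runx1, Foxp1, Foxo1, Ebf1, Pax5 and Bach2, with log2 fold changes from -0.43 (Pax5) to -0.33 (Runx1), beside its 6.34% of all genes, where edgeR gave none and the sign was the same. Pax5 was at 1662, 1493, 1370, 758 and 1257 CPM in PBS 1 to 5 and at 905 to 1395 CPM in Poly(A:U). Ebf1 was at 831, 868, 771, 459 and 668 CPM in PBS 1 to 5 and at 569 to 767 CPM in Poly(A:U). For both, PBS 4 was the lowest library and PBS 5 lay within the Poly(A:U) range. Voom weighted PBS 4 at 0.222, and no value without PBS 1 to 3 is given for these factors.

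Homologous recombination, the repair route that uses a sister chromatid, had 9 positive and 3 negative of 12 genes (median 0.075) and 3 with an unadjusted p below 0.05. Palb2, which links BRCA1 to BRCA2, had a PBS mean of 6.99 ± 1.31 CPM and a Poly(A:U) mean of 9.74 ± 1.33 CPM (SD, n = 5 each; log2 fold change 0.45 ± 0.16, SE), and voom also called it, at 0.58. Rad52, a strand annealing factor, was at 18.2 ± 5.43 and 24.5 ± 2.56 CPM (0.41 ± 0.17). Rad51d had a log2 fold change of -0.22 ± 0.097. Accessory end joining had 8 positive and 3 negative of 11 (median 0.069; Tdp2 0.12). Of 13 break sensing and end protection genes, 5 were positive and 8 negative (median -0.0092; Rad50 -0.16 and Mad2l2 -0.35). The value of Mad2l2 was 0.29 in voom, and its PBS libraries ranged from 12.1 to 53.4 CPM, against 15.6 to 18.4 CPM in Poly(A:U). Of 8 alternative end joining genes, 3 were positive and 5 negative (median -0.026; Lig3 -0.14 and Polq 0.33). The 7 paralogs of the members had 4 positive and 3 negative values (median 0.029), and among them Polb, a gap-filling polymerase, was called by voom (0.37) and Lig3 was again the next. The counts are descriptions of lists chosen with earlier results known, beside the 7.3% of all genes at an unadjusted p below 0.05.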

How the data were processed

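Per the file headers, the authors deposited estimated counts and TPM of each transcript, and a table of the whole series with a normalized signal, named as CPM. DRAGEN, edgeR 3.38.4 and the build mm10 are named in the submitters' processing notes. Counter settings, annotation release and strand use were not given in the sources used here. TPM keeps no depth.

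Of 142333 transcripts, 538 had no gene in GENCODE M21 and were left out (0.046% to 0.0695% of reads). Estimated counts were summed per gene, rounded, and scaled to CPM by library total. Genes were kept by filterByExpr (minimum count of 10). Groups were compared with edgeR 4.0.16 (R 4.3.3) by its quasi-likelihood test with TMM factors, two-sided, with Benjamini-Hochberg adjustment over all 13729 genes and a threshold of 0.05. Intervals are 95%, from the fit's degrees of freedom. Transcript counts were fitted in the same way.

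The alternatives were DESeq2 1.42.0, limma 3.58.1 (voom with quality weights, and tests on the authors' CPM + 0.5 and on TPM + 0.1), other filters and normalization, blocks, and each library left out. On 3 simulated sets of the PBS and Poly(A:U) comparison (13729 genes), with 200 changed, edgeR called 35.3% of 1.5-fold, 67.0% of 2-fold and 91.3% of 4-fold changes, and 2.98% of its calls were false.

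The members and lists were chosen with earlier results of these data known. From each list the called genes or, with none, the 2 with the smallest unadjusted p are named, and for likeness the 3 genes with the highest r over the 10 libraries, leaving out gene models, pseudogenes and receptor segments. Rad51d and the genes named as called by voom were added after their values were seen. One gene that this rule names is not reported here. Shld3 is not in the annotation. The smallest chi-square per gene between 2 libraries was 10.1, so none were taken as the same library. Each group was 5 pups, and the p-values weigh the difference between the groups against the spread between these libraries.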

Additional observations from a re-analysis of the deposited data

Results flagged for a closer look

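Of 40 groups of 5 values checked, 4 had 1 library whose gap to its nearest neighbour exceeded 0.71 of the whole range. Independent values from a normal distribution would give about 1 in 20. The groups here are not independent, since the ratios reuse genes also checked alone, so that rate is only a guide. Prkdc in Poly(A:U) 5 was at 94.2 CPM, with the other 4 Poly(A:U) libraries at 39.9 to 55.1 CPM. Xrcc5 in PBS 4 was at 83.6 CPM, with the other PBS libraries at 28.0 to 35.2 CPM. The ratio of Dntt to Rag1 in TPM was 1.18 in PBS 4 and at most 0.462 in the other PBS libraries. The ratio of Xrcc4 to Lig4 in TPM was 1.34 in Poly(A:U) 2 and 0.971 to 1.07 in the other Poly(A:U) libraries. PBS 4 is the library whose T cell and macrophage marker sums stand apart, and the part of those cells in these values was not tested.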

How the results depend on the processing

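Over all 10 libraries edgeR called 0 genes, DESeq2 13 and voom 870, and leaving out each library in turn gave 0 to 18. Voom called 8 genes of the other lists, edgeR 0 in every such fit. Rag2 was positive in all 22 settings, and its value in voom was 0.34 (adjusted p = 0.0346). Leaving out each library gave log2 fold changes of 0.22 to 0.32 for Rag2, -0.28 to -0.043 for Rag1, -0.35 to 0.18 for Dntt, 0.027 to 0.21 for Dclre1c, -0.33 to 0.028 for Prkdc, -0.14 to 0.017 for Xrcc4, -0.42 to 0.12 for Xrcc5, -0.061 to 0.029 for Xrcc6, -0.26 to -0.079 for Lig4 and -0.26 to -0.084 for Nhej1. Single libraries that turned a sign were PBS 4 (Dntt 0.18, Xrcc5 0.12), Poly(A:U) 2 (Dntt 0.016), Poly(A:U) 5 (Xrcc6 0.029), PBS 1 (Prkdc 0.028, Xrcc4 0.0047) and PBS 2 (Xrcc4 0.017). In voom Dntt was 0.052 and Xrcc5 0.025. Xrcc6 was 0.037 on the authors' CPM and 0.057 on TPM. Without PBS 1 to 3, Rag1 was 0.063, Xrcc4 0.23, Lig4 0.0088, Xrcc5 -0.74, Dntt -0.39 and Dclre1c 0.30. With the shared name parts as a block, Rag1 was 0.28, Prkdc 0.20, Xrcc4 0.15, Lig4 0.021, Xrcc5 -0.59, Xrcc6 -0.16 and Dclre1c 0.33. Without both PBS 4 and Poly(A:U) 5, a setting added after seeing the data, Xrcc5 was 0.040, Xrcc6 0.039, Rag1 -0.36, Lig4 -0.26, Prkdc -0.30 and Dclre1c 0.0022. Dntt was -0.074 in that setting and -0.063 with the name parts as a block. The cause of these changes was not tested. The unadjusted p of Rag2 was 0.159 without PBS 1 to 3 and 0.105 with that block, both by edgeR, and 0.0692 in limma on TPM. Nhej1 has no value under the filter of 10 CPM.

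Same-numbered libraries had correlations of deviations of 0.021, 0.14, 0.14, -0.13 and -0.18, so no strong pairing by number was seen. Values of this size cannot exclude a weak pairing. With the replicate number as a block, edgeR called 0 genes, and the log2 fold change of Rag2 was 0.28 (adjusted p = 0.71), of Rag1 -0.15 and of Dntt -0.070. The block changed no other call. A member changed by 1.5-fold could be missed at this number of libraries, as the simulated sets show.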
